A study of Mus musculus with 21 samples.

Results

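The miR-17-92 cluster and its paralog miR-106b-25 were followed in the mouse heart as 10 mature microRNAs. The miR-17-92 members were miR-17-5p, miR-18a-5p, miR-19a-3p, miR-20a-5p, miR-19b-3p and miR-92a-3p. The miR-106b-25 members were miR-106b-5p, miR-106b-3p, miR-93-5p and miR-25-3p. They were taken by name and make up 10 of the 1903 microRNAs named in the deposited count table. Of these 1903, 832 had a count in any library and 561 had enough counts to be tested, and all 10 members were among the 561. The set holds the strands usually described as the guides, the hairpin arms that are loaded and kept, with 1 exception: miR-106b-3p is the opposite arm of the hairpin that gives miR-106b-5p.

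Small RNA was sequenced from left ventricular myocardium of 21 C57BL/6J mice, with 1 library for each ear-tagged mouse. Sham was sham surgery without a drug (5 mice). TAC was pressure overload of the heart by surgery, transverse aortic constriction, also without a drug (5 mice). TAC+PDE5A-I was the same constriction followed by sildenafil, an inhibitor of phosphodiesterase 5A (5 mice), and TAC+PDE9A-I was constriction followed by PF-04449613, an inhibitor of phosphodiesterase 9A (6 mice). Both drugs were given for 4 weeks, beginning 1 week after surgery. No engineered allele is named for any group, and the labels give no dose, age, sex or vehicle. Both enzymes break down the second messenger cyclic GMP, and the design asks how overload and each inhibitor alter the microRNAs of the ventricle.

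MicroRNAs lower the translation and stability of messenger RNAs that they pair with, mainly through the seed near their 5′ end, so members with the same seed share most of their targets. The miR-17-92 hairpins are cut from a single primary transcript, which Myc induces and which is best known for driving proliferation, in tumours and also in heart muscle cells. The miR-106b-25 hairpins lie within the gene Mcm7, which encodes a subunit of the DNA replication helicase, and arose from the same ancestral cluster.

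The mature sequences are shown because members of 1 family differ by few bases and because GC content separated the signs of their fitted differences with sildenafil. They are written 5′ to 3′ with the seed, bases 2 to 8, in capitals, and come from RefSeq for GRCm38.p6, in which all 10 members were found. The seed AAAGUGC is shared by 4 members, which are known for repressing inhibitors of the cell cycle:
miR-17-5p: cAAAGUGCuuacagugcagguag
miR-20a-5p: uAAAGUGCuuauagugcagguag
miR-106b-5p: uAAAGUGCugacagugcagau
miR-93-5p: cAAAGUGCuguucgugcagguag
miR-18a-5p carries the close seed AAGGUGC:
miR-18a-5p: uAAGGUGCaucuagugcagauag
The miR-19 pair has the seed GUGCAAA and differs only by U11C, with positions counted from the 5′ end and miR-19a-3p as the reference:
miR-19a-3p: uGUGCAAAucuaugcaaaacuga
miR-19b-3p: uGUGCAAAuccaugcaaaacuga
The seed AUUGCAC is shared by miR-92a-3p, known for restraining the growth of blood vessels, and miR-25-3p, known for targeting the calcium pump SERCA2a of heart muscle:
miR-92a-3p: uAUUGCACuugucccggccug
miR-25-3p: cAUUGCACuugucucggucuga
The opposite arm of miR-106b has a seed of its own, CGCACUG:
miR-106b-3p: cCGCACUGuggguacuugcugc

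In GRCm38.p6 the mature miR-17-92 members spanned chr14:115043684-115044496 on the plus strand, 813 bases within an exon of the noncoding RNA gene Mir17hg. The miR-106b-25 members spanned chr5:138165332-138165807 on the minus strand, 476 bases within Mcm7. The miR-106b hairpin was intronic there, and the miR-93 and miR-25 hairpins overlapped an exon of a retained-intron transcript. The mature sequences of miR-19b-3p and miR-92a-3p are also made from copies on chromosome X (chrX:52741991-52742013 and chrX:52741854-52741874, minus strand), so their counts can hold reads of both loci. The X copies' own opposite arms, miR-19b-2-5p and miR-92a-2-5p, were listed at 0 in all 21 libraries. Reads of miR-19a-3p and miR-19b-3p, 1 base apart, could be assigned to each other, and each value carries that uncertainty.

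Libraries differed in depth, and 4 of them stood apart. Total counts ran from 3766517 to 7490436 in Sham and from 5373960 to 8497792 in TAC. The sildenafil libraries held 3149080, 3969716, 1631406, 1387007 and 1205417 counts. All 5 were shallower than every TAC library, so that against TAC depth and sildenafil cannot be told apart. Of the libraries without a drug, only Sham 4, at 3766517 counts, was shallower than TAC+PDE5A-I 2. TAC+PDE9A-I 5 was shallow at 1546318 counts, against 4785164 to 7532591 in the rest of its group. The 4 libraries under 2000000 counts were TAC+PDE5A-I 3, 4 and 5 and TAC+PDE9A-I 5. The mean GC content of the counted microRNAs, weighted by counts, was 44.6 to 45.1% in Sham and TAC, 46.0 to 48.6% in the sildenafil libraries and 47.2% in TAC+PDE9A-I 5. Where a library held 0 counts, the upper limit of 3 counts comes to 0.353 CPM, a count per 1000000 counts of its library, where depth was greatest and 2.49 CPM where it was least. Such limits cover counting error only, since PCR copies of a molecule were not told apart. They also take a listed 0 to mean no reads, although the smallest deposited value above 0 was 2. Of the heart muscle markers, miR-208a-3p, miR-499-5p, miR-133a-3p and miR-1a-3p were detected in all 21 libraries and together took 7.01 to 22.7% of the counts.

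Levels below are CPM scaled with edgeR's TMM factors and given as mean ± SD. In Sham the members spread from 7.90 to 10320 CPM. miR-92a-3p led at 10320 ± 1328 CPM (n = 5), followed by miR-25-3p at 1169 ± 81.9 and miR-93-5p at 455 ± 33.4, and no 2 of these 3 overlapped. The next 5 were miR-19b-3p at 108 ± 24.1 CPM, miR-20a-5p at 84.5 ± 14.9, miR-17-5p at 58.4 ± 7.67, miR-106b-5p at 56.8 ± 10.1 and miR-106b-3p at 46.3 ± 3.39, and each neighbour in that order overlapped the next. The lowest were miR-19a-3p at 13.3 ± 3.74 CPM and miR-18a-5p at 7.90 ± 1.32, which also overlapped each other. All mature members are 21 to 23 bases long, so no correction for length was made. Whether different sequences were captured equally well was not tested, so the levels compare counts and not molecules.

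Members of a single cluster therefore differed widely in counts, although miR-92a-3p and miR-19b-3p can also hold reads of their X copies. miR-92a-3p alone took 78.6 to 85.5% of the members' counts in Sham and TAC. The 2 arms of miR-106b were at similar levels in Sham, where miR-106b-5p was at 45.7 to 73.2 CPM and miR-106b-3p at 44.6 to 52.4 CPM. For most other hairpins the opposite arm was far below the member: miR-17-3p was at 11.004 ± 1.79 CPM in Sham, miR-92a-1-5p at 12.8 ± 2.28, miR-93-3p at 7.31 ± 1.47 and miR-25-5p at 4.49 ± 1.32. For the scarce miR-18a the arms lay closer, with miR-18a-3p at 3.41 ± 2.43 CPM beside 7.90 for miR-18a-5p.

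**Figure D1:**
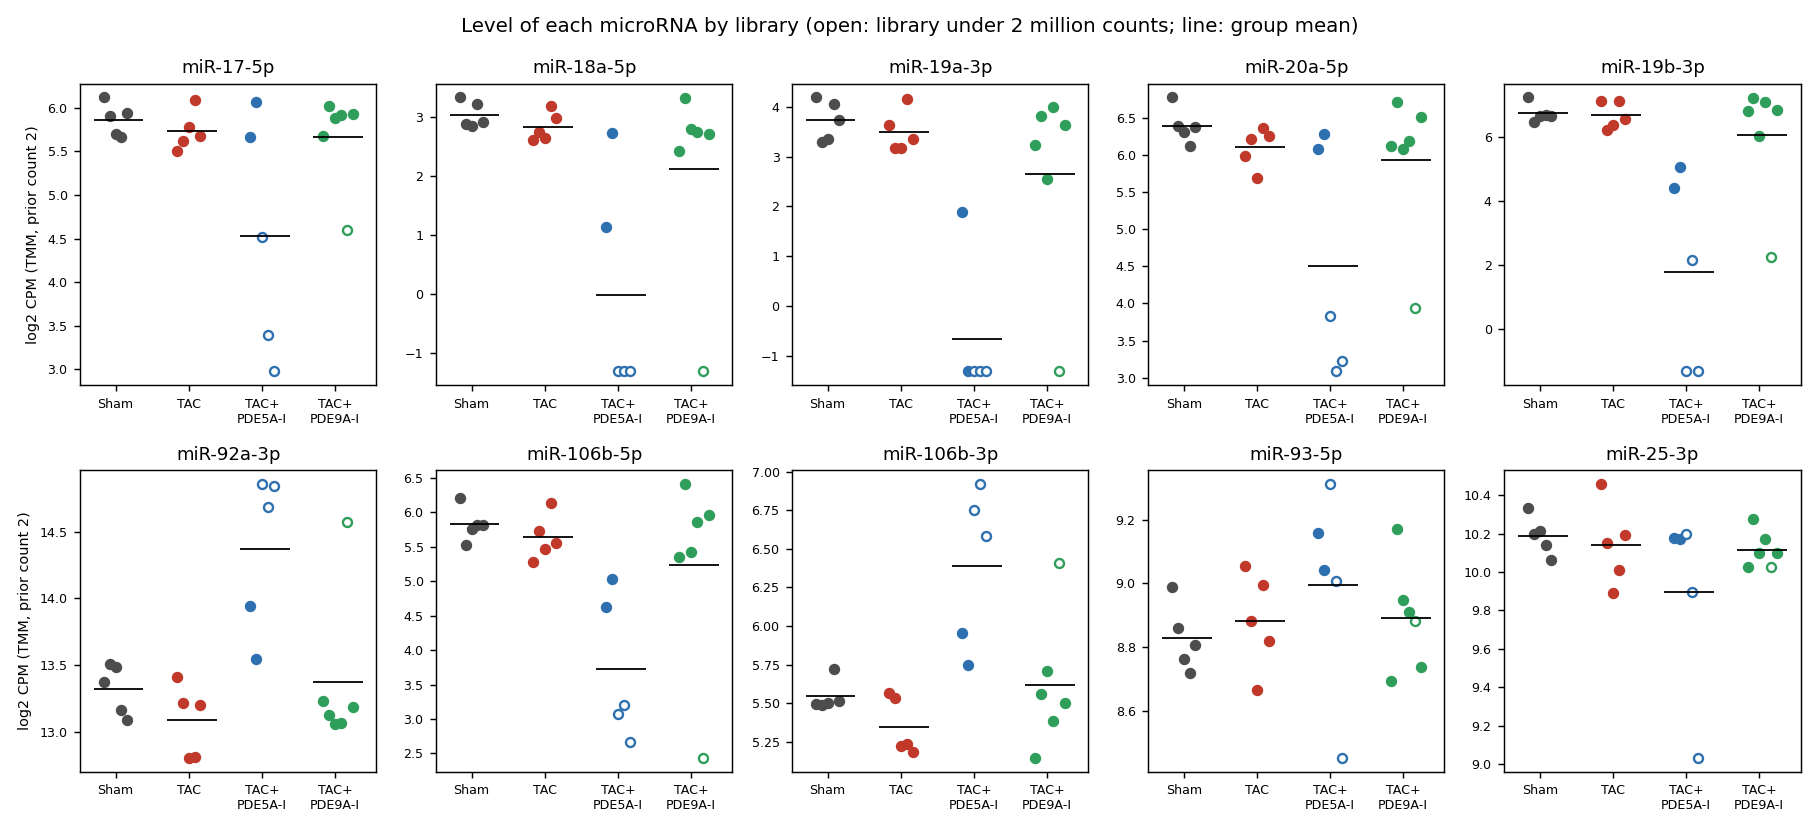
Level of each of the 10 microRNAs in each of the 21 libraries, as log2 CPM with a prior count of 2 on the vertical axis and the 4 groups along the horizontal axis. Each point is 1 library, open points are the 4 libraries under 2000000 counts and lines are group means; Sham and TAC overlap for every member, and the open points lie at the far end of their group for most members.

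Pressure overload without a drug left no member past the test. TAC was compared with Sham by edgeR's quasi-likelihood test in a fit of all 4 groups, and calls required p under 0.05 after Benjamini-Hochberg adjustment over all 561 microRNAs tested. Of the 10 members 0 were called higher and 0 lower, against 2.14% and 0.178% of all microRNAs tested (2.32% in either direction), and 0 members had an unadjusted p under 0.05, against 88 of the 561. DESeq2 also called 0 members, with 32 higher and 14 lower among all microRNAs. The background share depended on the fit. With Sham and TAC filtered, scaled and fitted alone, 75 of 507 microRNAs were called higher and 23 lower. Without the 4 libraries under 2000000 counts, 46 of 660 were called higher and 29 lower. In both of these fits 0 members had an unadjusted p under 0.05. Groups that did not overlap were seen for 0 members, against 8.56% of all microRNAs in each direction. The members' median log2 fold change was -0.18, beside -0.08 over all microRNAs tested.

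The fitted log2 fold changes of TAC against Sham ran from -0.29 ± 0.52 (SE) for miR-20a-5p to 0.06 ± 0.15 for miR-93-5p. The 95% interval was -0.42 to 0.34 for miR-25-3p, -0.85 to 0.40 for miR-92a-3p and -0.68 to 0.30 for miR-106b-3p. It was wider, -1.77 to 1.31, for miR-19a-3p, -1.76 to 1.34 for miR-18a-5p and -1.64 to 1.58 for miR-19b-3p. The width thus did not follow the level alone. By sample, miR-92a-3p was at 10632, 11639, 11455, 9165 and 8709 CPM in Sham and at 10909, 9529, 7148, 7202 and 9402 CPM in TAC, and the ranges overlapped with the 2 lowest libraries both in TAC. miR-17-5p was at 69.2, 59.6, 51.8, 50.2 and 61.0 CPM in Sham and at 45.0, 49.0, 54.4, 68.0 and 50.6 CPM in TAC, again overlapping.

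Sildenafil after constriction was the one condition in which members passed the test, and they did so in opposite directions within each cluster. Against TAC, miR-92a-3p and miR-106b-3p rose 2.56-fold and 2.15-fold, while miR-19b-3p, miR-19a-3p and miR-106b-5p fell. The other 5, miR-17-5p, miR-20a-5p, miR-18a-5p, miR-93-5p and miR-25-3p, did not pass. Thus 2 of 10 members were called higher, against 21.6% of all microRNAs tested, and 3 of 10 were called lower, against 24.8%. Together 5 of 10 stand beside 46.3%, so the share of members that changed was near that of all microRNAs. The same 5 had groups that did not overlap, 2 higher and 3 lower, against 13.2% and 20.7% of all microRNAs. The members' median log2 fold change was -0.84, and the median over all microRNAs was -0.31.

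miR-92a-3p was at 15738, 11978, 29692, 26347 and 29325 CPM in the sildenafil libraries. Every one of these lay above the highest TAC library, 10909 CPM, and the 3 shallow libraries were the highest. The group means were 22616 ± 8208 CPM with sildenafil (n = 5) and 8838 ± 1629 in TAC (n = 5). The log2 fold change was 1.36 ± 0.30 (SE), with an adjusted p of 0.00255. miR-92a-3p took 86.0 to 96.7% of the members' counts in the sildenafil libraries.

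miR-106b-3p was at 61.7, 53.2, 107, 121 and 95.5 CPM with sildenafil and at 46.9, 45.9, 36.9, 37.2 and 35.9 CPM in TAC. The groups did not overlap, and the 3 shallow libraries were again the highest. Means were 87.7 ± 29.1 and 40.6 ± 5.34 CPM (n = 5 each), with a log2 fold change of 1.11 ± 0.24 and an adjusted p of 0.00195.

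The miR-19 pair was low or at 0 in every sildenafil library. miR-19b-3p was at 20.95, 32.6, 0, 4.04 and 0 CPM with sildenafil and at 138, 73.9, 81.9, 139 and 94.3 CPM in TAC. No sildenafil library came near the lowest TAC library, and the 3 shallow ones held 0, 6 and 0 counts. The log2 fold change was -3.09 ± 0.85 (adjusted p = 0.00752). miR-19a-3p was at 3.29 CPM in TAC+PDE5A-I 1, from 11 counts, and at 0 in the other 4 sildenafil libraries. In TAC it was at 11.98, 8.61, 8.59, 17.5 and 9.79 CPM, so that all TAC libraries were above all sildenafil libraries. Its fitted log2 fold change was -3.73 ± 0.92 (adjusted p = 0.00394), a size that depends on the prior count because 4 libraries were at 0. If a listed 0 means no reads, the limit was 0.756 to 2.49 CPM of the library total in those 4 libraries, below every TAC value.

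Among the 4 members with the seed AAAGUGC, miR-106b-5p passed the test. It was at 24.2, 32.4, 7.97, 8.76 and 5.97 CPM with sildenafil and at 38.5, 52.7, 43.8, 70.0 and 46.7 CPM in TAC. The groups did not overlap, with the 3 shallow libraries lowest, from 8 to 13 counts each. The log2 fold change was -1.62 ± 0.50 (adjusted p = 0.0148), from 50.3 ± 12.1 to 15.9 ± 11.8 CPM. miR-17-5p and miR-20a-5p, 2 bases apart in sequence, instead split the sildenafil group. miR-17-5p was at 50.6 and 66.9 CPM in the 2 deeper sildenafil libraries, within the TAC range of 45.0 to 68.0, and at 22.5, 10.1 and 7.46 CPM in the 3 shallow ones. miR-20a-5p was at 67.3 and 77.4 CPM in the deeper libraries, within the TAC range of 51.3 to 81.6, and at 13.8, 8.09 and 8.95 CPM in the shallow ones. Their log2 fold changes were -0.74 ± 0.42 (adjusted p = 0.156) and -0.95 ± 0.53 (adjusted p = 0.149).

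The remaining members did not pass. miR-18a-5p was at 1.796, 6.26, 0, 0 and 0 CPM with sildenafil and at 5.69 to 8.67 CPM in TAC, with a log2 fold change of -1.81 ± 0.80 (adjusted p = 0.0678). With ear tag range as a covariate it was called lower (-2.50, adjusted p = 0.0433). The abundant miR-93-5p was at 571, 527, 635, 514 and 350 CPM with sildenafil and at 406 to 532 CPM in TAC, a log2 fold change of 0.13 ± 0.15 with a 95% interval of -0.19 to 0.45. miR-25-3p was at 1156, 1153, 1175, 952 and 523 CPM against 949 to 1405 CPM in TAC, a log2 fold change of -0.20 ± 0.18 with an interval of -0.58 to 0.18. In both, the lowest library was TAC+PDE5A-I 5, the shallowest of the series. The median of all microRNAs moves from -0.31 to 0.16 when libraries are scaled by the upper quartile, which gives 172 higher and 110 lower calls in place of 121 and 139. With that scaling miR-93-5p was called higher (0.62, adjusted p = 0.00455) and miR-25-3p stood at 0.26 without a call (adjusted p = 0.234), while the 5 members named above kept their calls.

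The sildenafil calls rested partly on the shallow libraries. Leaving out the 4 libraries under 2000000 counts kept only TAC+PDE5A-I 1 and 2 of the sildenafil group, both shallower than every TAC library. They held 11 and 0 counts of miR-19a-3p. Of 660 microRNAs in that fit, 41 were called higher and 81 lower. Of the members, miR-92a-3p (0.67, adjusted p = 0.0118), miR-106b-3p (0.52, 0.0386), miR-19b-3p (-1.95, 0.00109) and miR-19a-3p (-2.81, 0.0236) were still called, with log2 fold changes all nearer 0. miR-106b-5p was not (-0.81, adjusted p = 0.0640), and miR-17-5p and miR-20a-5p stood at 0.15 and 0.08. Leaving out TAC+PDE5A-I 2, the deepest sildenafil library, gave 7 lower members in place of 3, adding miR-17-5p, miR-18a-5p, miR-20a-5p and miR-25-3p. DESeq2 called 5 lower, adding miR-18a-5p (-1.88, adjusted p = 0.0194) and miR-25-3p (-0.39, adjusted p = 0.0374).

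**Figure D2:**
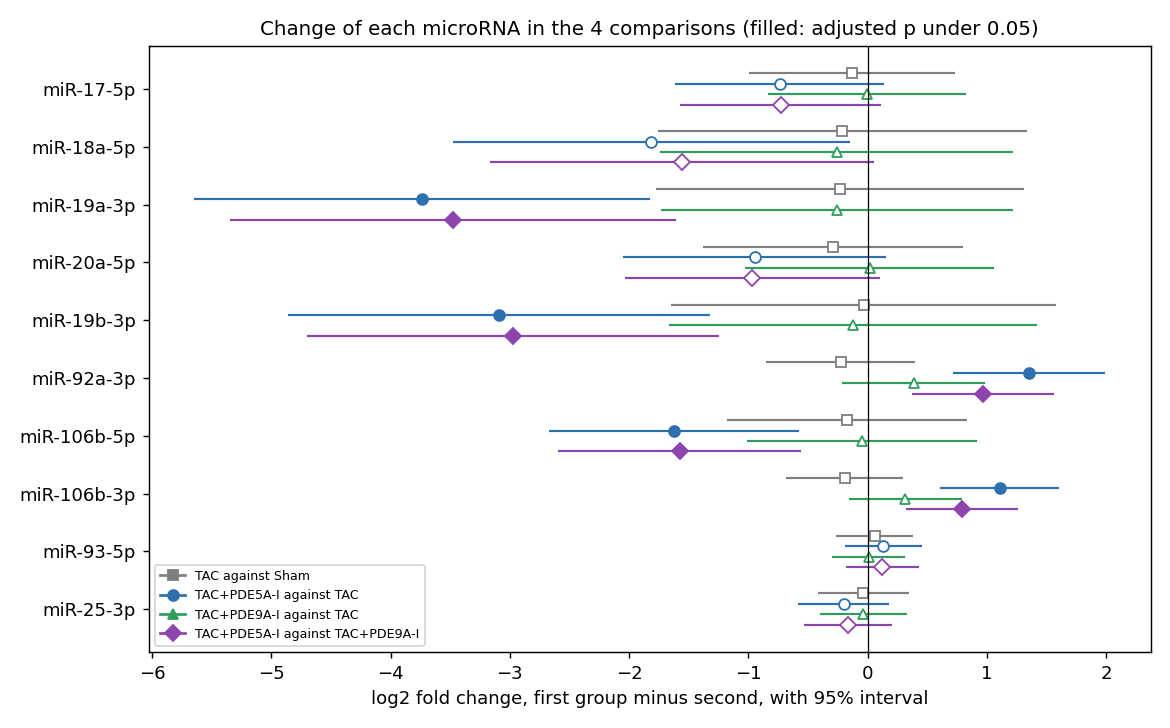
Fitted log2 fold change of each microRNA, first group minus second, with its 95% interval along the horizontal axis, for the 4 comparisons told apart by marker shape; filled markers have an adjusted p under 0.05. The filled markers lie at miR-19a-3p, miR-19b-3p, miR-92a-3p, miR-106b-5p and miR-106b-3p in the 2 comparisons that hold the sildenafil group, and the intervals of TAC against Sham and of TAC+PDE9A-I against TAC cross 0 for every member.

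The members of each cluster, of the seed AAAGUGC and of the seed AUUGCAC fell on both sides of 0. In the reported fit a limit of 50% GC separated the signs of the 10 members. GC content ran from 34.8% in miR-19a-3p to 63.6% in miR-106b-3p. All 7 members at 50% GC or less had a negative log2 fold change of sildenafil against TAC, from -3.73 to -0.20, and the 3 above 50%, miR-93-5p, miR-92a-3p and miR-106b-3p, had a positive one, from 0.13 to 1.36. The split at 50% rests on 2 uncalled members near 0: miR-25-3p (-0.20) stood at 0.26 with upper-quartile scaling, and miR-93-5p (0.13) stood at -0.058 with DESeq2 and was negative in 5 of 10 fits without 1 library. Among the relatives, miR-92a-1-5p, at 47.8% GC, was on the other side, called higher at 0.79. This is a description of 10 members that share the same libraries. Over all 561 microRNAs tested 315 log2 fold changes were negative and 246 positive, and their split by GC content was not counted. When each library was corrected for a trend of counts with GC content, 2 of the 5 calls stayed: miR-92a-3p at 1.00 ± 0.29 (adjusted p = 0.0129) and miR-19b-3p at -1.69 ± 0.51 (adjusted p = 0.0158). miR-106b-3p then stood at 0.38 (adjusted p = 0.0812), miR-19a-3p at -1.71 (0.0731) and miR-106b-5p at -0.42 (0.237). miR-20a-5p turned from -0.95 to 0.58 and was called higher (adjusted p = 0.0420). Over all microRNAs the correction gave 99 higher and 50 lower calls of 481, with a median log2 fold change of 0.12.

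**Figure D3:**
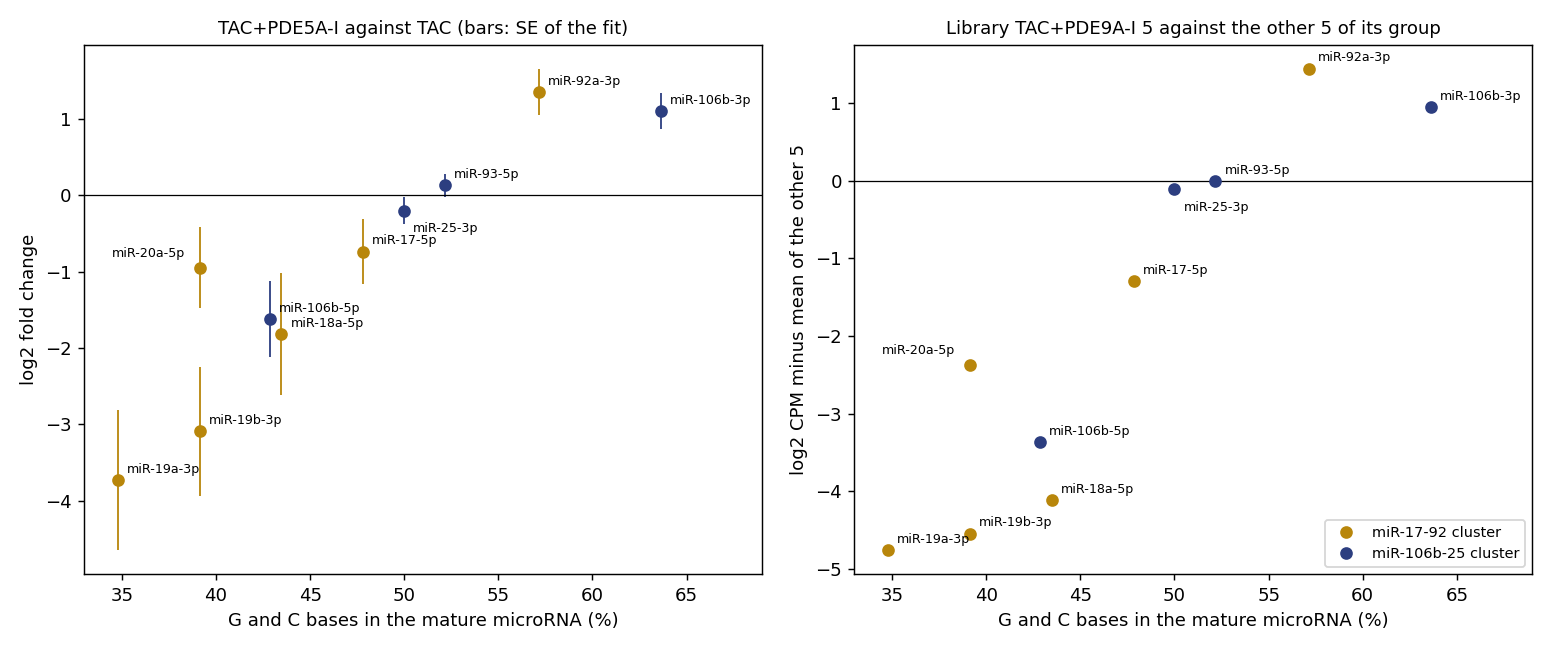
GC content of each mature microRNA in percent on the horizontal axis, against its log2 fold change of sildenafil over TAC with the SE of the fit (left) and against the log2 CPM of library TAC+PDE9A-I 5 minus the mean of the other 5 libraries of its group (right). Points are coloured by cluster; in both panels miR-19a-3p, at 34.8% GC, is lowest, miR-92a-3p, at 57.1% GC, is highest, and miR-25-3p and miR-93-5p lie near 0.

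The other genes of these loci and families were read from a list of 20 relatives, of which 9 had enough counts to be tested. In sildenafil against TAC, 5 of the 9 were called higher and 2 lower, beside 21.6% and 24.8% of all microRNAs tested. Of the 6 opposite arms tested, 4 were called higher: miR-17-3p (0.93 ± 0.24), miR-92a-1-5p (0.79 ± 0.24), miR-93-3p (1.22 ± 0.26) and miR-25-5p (0.90 ± 0.36), with adjusted p-values of 0.00506, 0.0143, 0.00195 and 0.0483. miR-18a-3p stood at 0.71 and miR-20a-3p at -1.58 without a call. miR-17-3p was thus at 17.4 ± 4.45 CPM with sildenafil and 9.07 ± 2.79 in TAC, whereas miR-17-5p of the same hairpin was at 31.5 ± 26.1 and 53.4 ± 8.85 CPM.

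Relatives with the seed AUUGCAC moved apart from each other. miR-92b-3p was at 230 ± 99.2 CPM with sildenafil and 104 ± 11.2 in TAC (1.14 ± 0.35, adjusted p = 0.0143). These groups overlapped, with 94.1 CPM in the lowest sildenafil library and 115 in the highest TAC library. In Sham it was at 58.9 ± 3.87 CPM, below every TAC library. TAC against Sham was not called for it (0.83 ± 0.35, edgeR adjusted p = 0.220), and groups without overlap, higher in TAC, were seen for 8.56% of all microRNAs. miR-32-5p was at 1.17 ± 1.25 CPM with sildenafil and 17.1 ± 2.12 in TAC, with no overlap (-3.74 ± 0.75, adjusted p = 0.00153). With the GC correction the calls of miR-32-5p (-1.25, adjusted p = 0.0924), miR-92b-3p (0.41, 0.259) and miR-25-5p (0.45, 0.337) ended, while miR-17-3p (0.86, 0.0104), miR-92a-1-5p (1.53, 0.00535) and miR-93-3p (0.75, 0.0131) were still called. miR-363-3p of the X-linked miR-106a-363 cluster was listed at 0 in all 5 sildenafil libraries and at 1.19 ± 0.78 CPM in TAC, too near the detection limit for a fold. The other 9 microRNAs of that cluster had too few counts to be tested: miR-106a-5p, 1 base from miR-17-5p, reached 9 counts at most and miR-20b-5p 16.

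**Figure D4:**
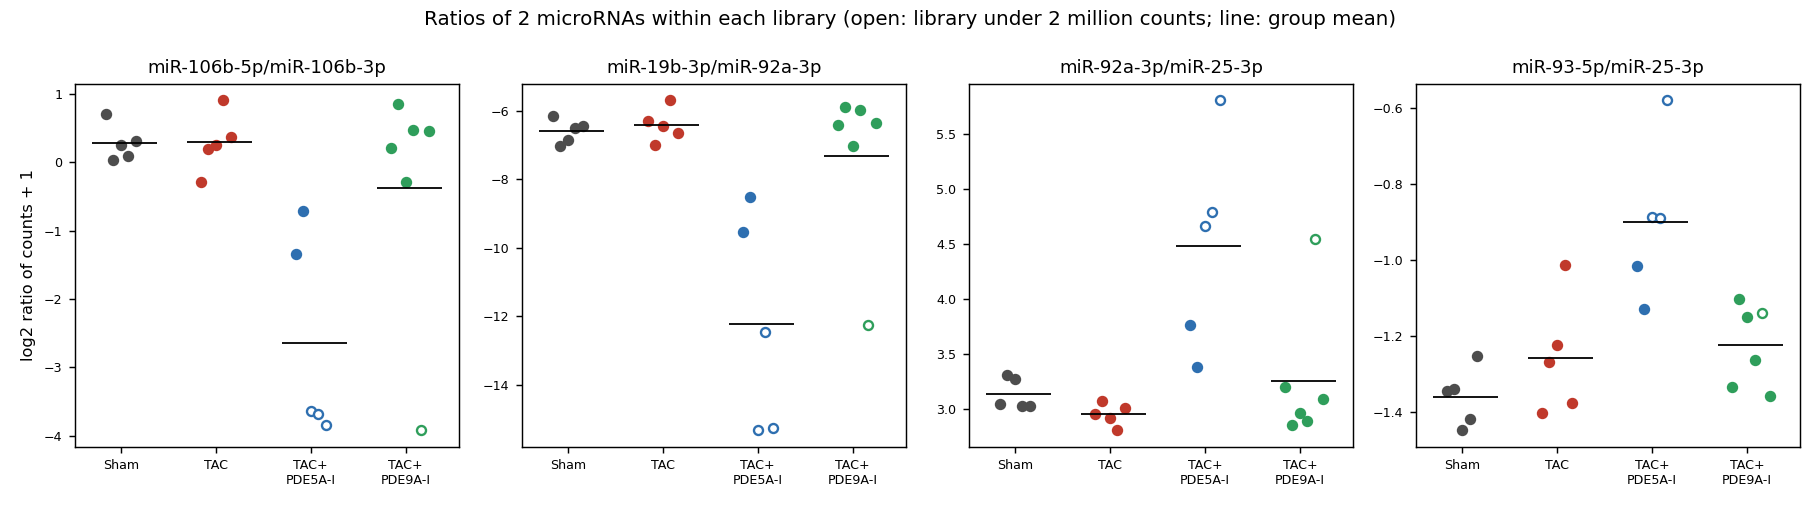
Log2 ratio of the counts, with 1 added to each, of 4 pairs of members within each library, by group along the horizontal axis. Each point is 1 library, open points are the libraries under 2000000 counts and lines are group means; sildenafil and TAC libraries do not overlap for miR-106b-5p over miR-106b-3p, miR-19b-3p over miR-92a-3p and miR-92a-3p over miR-25-3p.

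Ratios of 2 members within a library do not depend on how libraries are scaled, and 9 were compared in each of the 4 comparisons by two-sided exact permutation tests. The 2 arms of miR-106b come from 1 hairpin. Their log2 ratio, 5p over 3p, was 0.29 ± 0.43 in TAC (n = 5) and -2.64 ± 1.495 with sildenafil (n = 5), where every library was below every TAC library. The exact permutation p was 0.00794, the smallest that 252 arrangements allow, and 0.0571 after adjustment over the 36 tests. The ratio of miR-19b-3p to miR-92a-3p, from neighbouring hairpins of 1 transcript, was -6.42 ± 0.49 in TAC (log2 scale) and -9.53, -8.51 and -12.4 in TAC+PDE5A-I 1, 2 and 4. In TAC+PDE5A-I 3 and 5, miR-19b-3p had 0 counts, so their ratios of -15.3 are set by the 1 added and the depth. Every sildenafil library was below every TAC library, with the same exact permutation p of 0.00794 and adjusted p of 0.0571. The ratio of miR-92a-3p to miR-25-3p, which share a seed, was 2.95 ± 0.10 in TAC and 4.48 ± 0.95 with sildenafil. That of miR-106b-5p to miR-93-5p, which also share a seed, was -3.26 ± 0.33 and -5.24 ± 0.92. Both had an exact permutation p of 0.00794 and an adjusted p of 0.0571. No ratio passed an adjusted p of 0.05 in any comparison, a threshold that these group sizes reach only when several ratios lie at or near the smallest p together. Leaving out TAC+PDE5A-I 2 brought 11 ratios past it, and leaving out TAC+PDE9A-I 5 brought 8.

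PF-04449613 after constriction gave no called member. Against TAC, 0 of 10 members were called, and 0% of all microRNAs tested, with 16 of the 561 and 0 of the 10 members at an unadjusted p under 0.05. DESeq2 called 2 higher and 2 lower microRNAs and 0 members. Groups that did not overlap were seen for 0 members and for 0% of all microRNAs. The members' log2 fold changes ran from -0.26 ± 0.71 for miR-19a-3p and miR-18a-5p to 0.39 ± 0.29 for miR-92a-3p, with a median of -0.02, beside -0.04 over all microRNAs. Among the abundant members, miR-93-5p was at 477 ± 57.7 CPM in TAC+PDE9A-I (n = 6) and 474 ± 49.5 in TAC, and miR-25-3p at 1111 ± 74.7 and 1138 ± 173 CPM. With the seed AAAGUGC, miR-17-5p was at 53.0 ± 15.0 CPM (53.4 ± 8.85 in TAC), miR-20a-5p at 69.8 ± 30.5 (69.1 ± 12.1) and miR-106b-5p at 48.6 ± 26.6 (50.3 ± 12.1). The rest also lay within 1 SD of TAC's mean or had an SD that covered it: miR-18a-5p was at 5.59 ± 3.15 CPM, miR-19a-3p at 9.29 ± 5.78, miR-19b-3p at 96.8 ± 53.5, miR-106b-3p at 50.7 ± 17.4 and miR-92a-3p at 11553 ± 6284. The 95% interval was -0.40 to 0.33 for miR-25-3p and -0.30 to 0.32 for miR-93-5p. It was -0.21 to 0.99 for miR-92a-3p and -1.74 to 1.22 for miR-19a-3p.

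A single library of the group stood apart. miR-92a-3p was at 8535 CPM in the lowest TAC+PDE9A-I library, 9132 at the median and 24350 in the highest, which was replicate 5, while the other 5 reached 9610 CPM at most. miR-19b-3p was at 4.37 CPM in replicate 5 and at 65.6 to 149 CPM in the other 5. Both values of replicate 5 lay within the range of the sildenafil libraries. Over the 10 members, replicate 5 was below the other 5 libraries of its group for 7, above them for miR-92a-3p and miR-106b-3p, and among them for miR-93-5p. The matching share over all microRNAs tested was not counted, so these counts do not set the members apart from other microRNAs. The mean GC content of all counted microRNAs, weighted by counts, was 47.2% in replicate 5 and 44.7 to 45.3% in the other 5. For 9 of the 10 members the level of replicate 5 lay inside the sildenafil range. For miR-106b-5p, at 5.00 CPM from 8 counts, it lay under the lowest sildenafil library of 5.97 CPM. For miR-17-5p (7.46 to 66.9 CPM) and miR-93-5p (350 to 635 CPM) the sildenafil range also held all the other 5 libraries. For miR-18a-5p, miR-20a-5p and miR-25-3p it held some of them. The log2 CPM of replicate 5 minus the mean of the other 5 ran from -4.76 for miR-19a-3p to 1.44 for miR-92a-3p. The first value depends on the prior count, since replicate 5 held 0 counts of miR-19a-3p.

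Without replicate 5, PF-04449613 still gave 0 called members against TAC. It is 1 of the 4 shallow libraries, and with all 4 left out miR-17-5p stood at 0.17, miR-19b-3p at 0.16 and miR-106b-5p at 0.21, each turned from a negative value.

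Sildenafil was also set against PF-04449613 directly, which tests the difference of their effects, since both are read against the same 5 TAC libraries. The drugs were given over the same weeks. Called higher with sildenafil were miR-92a-3p (0.97 ± 0.29, adjusted p = 0.0162) and miR-106b-3p (0.79 ± 0.23, 0.0141), that is 2 of 10 against 15.2% of all microRNAs. Called lower were miR-19a-3p (-3.48 ± 0.90, 0.0113), miR-19b-3p (-2.97 ± 0.83, 0.0139) and miR-106b-5p (-1.58 ± 0.49, 0.0202), that is 3 of 10 against 19.6%. The groups failed to overlap for 0 members, against 1.25% of all microRNAs higher and 0.713% lower. For each of the 5 called members, TAC+PDE9A-I 5 lay within the sildenafil range or beyond it, and the other 5 TAC+PDE9A-I libraries lay outside it on the TAC side. Upper-quartile scaling gave 138 higher and 90 lower calls over all microRNAs in place of 85 and 110. It added miR-93-5p to the higher members (0.51, adjusted p = 0.0165).

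For the other 5 members the interval of the difference between the drugs held 0. It was -0.18 to 0.43 for miR-93-5p, -0.53 to 0.20 for miR-25-3p, -1.58 to 0.12 for miR-17-5p, -2.04 to 0.10 for miR-20a-5p and -3.17 to 0.06 for miR-18a-5p. When these 2 groups were filtered, scaled and fitted alone, 0 of the 10 members and 0 of 466 microRNAs were called, with adjusted p-values from 0.104 to 0.940 for the members and 162 microRNAs at an unadjusted p under 0.05. With the GC correction 1 of the 5 calls stayed, miR-19b-3p (-1.65, adjusted p = 0.0326), and miR-92a-3p (0.63, 0.113), miR-106b-3p (0.18, 0.452), miR-19a-3p (-1.61, 0.118) and miR-106b-5p (-0.47, 0.196) did not pass. With ear tag range as a covariate miR-92a-3p (0.85, adjusted p = 0.0722) and miR-106b-3p (0.67, 0.0720) did not pass. DESeq2 added miR-18a-5p to the lower members (-1.65, adjusted p = 0.0432). Without TAC+PDE5A-I 3 or 4, or without TAC+PDE9A-I 2, 0 members were called higher, and without TAC+PDE5A-I 5, 1 was. Leaving out any of TAC+PDE5A-I 3, 4 or 5 or TAC+PDE9A-I 2 also ended the call of miR-106b-5p. Without TAC+PDE5A-I 2, 6 members were called lower.

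Ear tags fell into 3 ranges, in the 100s, 500s and 600s, which the labels give as sample names and not as a batch. The 3 shallow sildenafil libraries all carry tags in the 600s and the 2 deeper ones tags in the 500s. Within the 600s, sildenafil minus TAC (3 against 2 libraries) was 1.79 log2 units for miR-92a-3p, 1.54 for miR-106b-3p, -7.00 for miR-19b-3p, -5.06 for miR-19a-3p, -2.87 for miR-106b-5p and -2.26 for miR-17-5p. Within the 500s (2 against 1) the same differences were 0.94, 0.63, -1.63, -2.88, -0.64 and 0.10. The sildenafil libraries of the 600s held 0, 6 and 0 counts of miR-19b-3p and 0 of miR-19a-3p. TAC+PDE5A-I 2, of the 500s, also held 0 of miR-19a-3p. The sizes of those differences therefore depend on the prior count. miR-20a-5p was at -2.93 in the 600s and 0.49 in the 500s, and miR-25-3p at -0.39 and 0.28. Thus 3 of the 10 members, miR-17-5p, miR-20a-5p and miR-25-3p, differed in sign between the ranges. For the 5 called members sildenafil and TAC libraries did not overlap, so an equal sign in both ranges was fixed in advance. For sildenafil minus PF-04449613, the differences within the 500s (2 against 4) were 0.29 for miR-92a-3p, 0.08 for miR-106b-3p, -0.20 for miR-106b-5p, -0.92 for miR-19b-3p and -1.98 for miR-19a-3p. The 4 PF-04449613 libraries of that range include the shallow replicate 5, which held 0 counts of miR-19a-3p.

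Marker microRNAs of other cell types also differed between sildenafil and TAC libraries. In that comparison 21.6% of all microRNAs tested were called higher and 24.8% lower. The endothelial markers miR-126a-3p and miR-126a-5p together took 3.27 to 3.80% of counts in Sham, 2.96 to 4.13% in TAC, 0.111 to 1.77% with sildenafil and 0.325 to 4.28% in TAC+PDE9A-I, and 1 of 2 was called lower against TAC. The 3 smooth muscle markers took 7.60 to 12.9% in TAC and 0.538 to 4.88% with sildenafil, with 2 called lower and 1 higher. The 3 erythroid markers took 0.0441 to 0.117% in TAC and 0.00257 to 0.0469% with sildenafil, and all 3 were called lower. The 5 leukocyte markers took 0.126 to 0.254% in TAC and 0.237 to 0.334% with sildenafil, with 3 called lower and 1 higher, and miR-142a-3p was at 0 in 1 sildenafil library. The 4 heart muscle markers took 7.01 to 14.6% in TAC and 15.8 to 22.7% with sildenafil, where miR-133a-3p was called higher and miR-499-5p, miR-1a-3p and miR-208a-3p lower. The part of other cell types in the members' values was not tested. In whole tissue, fewer cells of a type and less RNA per cell cannot be told apart.

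Profiles over the 21 libraries were also compared with those of the 303 microRNAs at a mean of at least 10 CPM, by the root mean square difference of log2 CPM after each profile was centred on its mean. Only 8 of the members reach that level, so miR-18a-5p and miR-19a-3p could not be returned as a neighbour. Among the 303, no member was nearest to another. miR-25-3p was nearest to miR-107-3p (0.13 log2 units) and miR-93-5p to miR-181d-5p (0.15). miR-92a-3p was nearest to miR-1249-3p (0.19) and miR-106b-3p to miR-1843a-3p (0.15). miR-17-5p was nearest to let-7g-5p (0.24), miR-20a-5p to miR-16-5p (0.26), miR-18a-5p to miR-872-5p (0.36) and miR-106b-5p to miR-24-2-5p (0.37). The miR-19 pair had the most distant neighbours, miR-335-5p for miR-19b-3p (0.48) and miR-142a-5p for miR-19a-3p (0.64).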

How the data were processed

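The deposited table holds counts of reads per mature microRNA, which the authors left unnormalised, per the file headers and values. DESeq 1.26.0, Bowtie 1.1.1, cutadapt 1.8 and CASAVA 1.8.4 are named in the submitters' processing notes, with no role for each. The genome build is not given in the sources used here. The table has 25958 lines, of which 1903 are named and 24055 are blank, and the smallest value above 0 is 2. Samples were grouped by the labels' surgery and drug, and each library carries its own ear tag. Within groups, 45 pairs of libraries were checked and 0 were identical.

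The counts were fitted with edgeR 4.0.16 (R 4.3.3): filterByExpr by group (561 kept), TMM scaling and a robust quasi-likelihood fit over the 4 groups (17 residual degrees of freedom), Benjamini-Hochberg adjustment over all microRNAs tested and a prior count of 2 for log2 CPM. The fit was tested on simulated data with the same spread for every microRNA and no outlying library. Data with libraries as unlike as these were not simulated. Ratios used counts with 1 added. Members and relatives were matched by name to RefSeq sequences (10 of 10 and 18 of 20). The GC correction removed a lowess trend (span 0.5) in each library over microRNAs with a RefSeq sequence, of which 481 passed the filter of that fit. DESeq2 1.42.0, other scalings, no filter, the compared groups alone, a replicate block, ear tag range, thinning and leaving out each library were alternatives, and leaving out the 4 shallow libraries was added after seeing the data.

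The members, lists and tests were chosen with earlier results of these data known. Every member is named in every comparison. Of the relatives, those called are named with those needed beside them. The nearest profile of each member was named by its rank alone.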

Additional observations from a re-analysis of the deposited data

Results flagged for a closer look

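Within groups of 4 to 10 libraries, 40 sets of member levels were searched for a library far from the others, and 7 were found. Chance alone gives about 1 in 20. In 3 of the 7 the library was TAC+PDE9A-I 5, where miR-17-5p was at 23.7 CPM (nearest library 50.8), miR-92a-3p at 24350 CPM (nearest 9610) and miR-106b-3p at 84.4 CPM (nearest 52.0). Among the sildenafil libraries, miR-18a-5p stood out at 6.26 CPM in TAC+PDE5A-I 2, the deepest of its group (nearest 1.796), and miR-19a-3p at 3.29 CPM in TAC+PDE5A-I 1, the only one of its group with a count. In Sham, miR-19b-3p was at 150 CPM in library 1 (nearest 102) and miR-106b-3p at 52.4 CPM in library 4 (nearest 45.3).

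The effects of the 2 drugs against TAC differed for 5 members by edgeR's test of the difference itself. Sildenafil minus PF-04449613 was -3.48 for miR-19a-3p, -2.97 for miR-19b-3p, 0.97 for miR-92a-3p, -1.58 for miR-106b-5p and 0.79 for miR-106b-3p, on the log2 scale. With those 2 groups filtered, scaled and fitted alone, 0 of the 5 passed, with adjusted p-values from 0.104 to 0.118. With the GC correction 1 of the 5 passed, miR-19b-3p at -1.65 (adjusted p = 0.0326).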

How the results depend on the processing

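Direction and call were compared under the other settings for the 10 members, called overload (TAC against Sham), sildenafil (TAC+PDE5A-I against TAC), PF-04449613 (TAC+PDE9A-I against TAC) and the drug difference (TAC+PDE5A-I against TAC+PDE9A-I). Apart from single libraries left out, direction and call stayed for 349 of 440 member values, 58 turned sign, 25 lost and 8 gained a call. Of these 58, 2 were called, both for miR-20a-5p under sildenafil with the GC correction (0.58, edgeR adjusted p = 0.0420, and 0.52, 0.0487, with the replicate block too). Under sildenafil miR-92a-3p (higher) and miR-19b-3p (lower) were called in all 12 settings, the reported one included, and in each of 10 fits without 1 library. The causes were not tested. Without the filter on low counts, log2 fold changes of the opposite sign were 0.012 for miR-106b-5p, 0.059 for miR-17-5p, 0.16 for miR-19b-3p and 0.15 for miR-25-3p under overload. Others were -0.096 for miR-93-5p under sildenafil, and -0.056 for miR-20a-5p and -0.065 for miR-93-5p under PF-04449613, and -0.031 for miR-93-5p for the drug difference. Calls were 20 microRNAs higher and 0 microRNAs lower under overload, 58 microRNAs higher under sildenafil, 1 member higher and 29 microRNAs higher for the drug difference. With the GC correction, log2 fold changes of the opposite sign were -0.0061 for miR-93-5p under overload. Others were 0.58 for miR-20a-5p and 0.15 for miR-25-3p under sildenafil, and 0.049 for miR-106b-5p, 0.14 for miR-17-5p and 0.12 for miR-25-3p under PF-04449613, and 0.32 for miR-20a-5p and 0.031 for miR-25-3p for the drug difference. Calls were 22 microRNAs higher and 4 microRNAs lower under overload, 1 member lower and 50 microRNAs lower under sildenafil, 1 microRNA lower under PF-04449613, 0 members higher, 1 member lower, 37 microRNAs higher and 33 microRNAs lower for the drug difference. Without the 4 libraries under 2000000 counts, left out after seeing the data, log2 fold changes of the opposite sign were 0.15 for miR-17-5p, 0.083 for miR-20a-5p and 0.038 for miR-25-3p under sildenafil. Others were 0.21 for miR-106b-5p, 0.17 for miR-17-5p, 0.013 for miR-19a-3p, 0.16 for miR-19b-3p and 0.0098 for miR-25-3p under PF-04449613, and 0.028 for miR-25-3p for the drug difference. Calls were 46 microRNAs higher and 29 microRNAs lower under overload, 41 microRNAs higher and 81 microRNAs lower under sildenafil, 2 microRNAs lower under PF-04449613, 1 member higher and 20 microRNAs higher for the drug difference. With scaling by total counts, log2 fold changes of the opposite sign were 0.035 for miR-17-5p, 0.12 for miR-19b-3p and 0.11 for miR-25-3p under overload. Others were 0.043 for miR-17-5p and 0.030 for miR-25-3p under PF-04449613. Calls were 0 microRNAs lower under overload. With the compared groups alone, log2 fold changes of the opposite sign were 0.0023 for miR-17-5p, 0.10 for miR-19b-3p and 0.096 for miR-25-3p under overload. Others were -0.0075 for miR-20a-5p and -0.031 for miR-93-5p under PF-04449613, and -0.022 for miR-93-5p for the drug difference. Calls were 75 microRNAs higher and 23 microRNAs lower under overload, 0 members higher, 0 members lower, 0 microRNAs higher and 0 microRNAs lower for the drug difference. With DESeq2, log2 fold changes of the opposite sign were -0.058 for miR-93-5p under sildenafil. Others were 0.0081 for miR-17-5p under PF-04449613, and -0.067 for miR-93-5p for the drug difference. Calls were 32 microRNAs higher and 14 microRNAs lower under overload, 5 members lower under sildenafil, 2 microRNAs higher and 2 microRNAs lower under PF-04449613, 166 microRNAs lower for the drug difference. With the replicate block and the GC correction, log2 fold changes of the opposite sign were -0.0084 for miR-93-5p under overload. Others were 0.52 for miR-20a-5p and 0.16 for miR-25-3p under sildenafil, and 0.076 for miR-17-5p and 0.13 for miR-25-3p under PF-04449613, and 0.29 for miR-20a-5p and 0.029 for miR-25-3p for the drug difference. Calls were 21 microRNAs higher and 5 microRNAs lower under overload, 1 member lower and 51 microRNAs lower under sildenafil, 0 members higher, 0 members lower, 12 microRNAs higher and 18 microRNAs lower for the drug difference. With upper-quartile scaling, log2 fold changes of the opposite sign were 0.26 for miR-25-3p under sildenafil. Others were 0.048 for miR-17-5p and 0.059 for miR-25-3p under PF-04449613, and 0.20 for miR-25-3p for the drug difference. Calls were 2 microRNAs lower under overload, 1 microRNA lower under PF-04449613, 138 microRNAs higher for the drug difference. With libraries thinned to the shallowest, log2 fold changes of the opposite sign were 0.026 for miR-19b-3p and 0.026 for miR-25-3p under overload. Others were -0.043 for miR-93-5p under sildenafil, and -0.00045 for miR-20a-5p and -0.067 for miR-93-5p under PF-04449613. With ear tag range as a covariate, the sign turned to -0.28 for miR-20a-5p and -0.034 for miR-93-5p under PF-04449613. Calls were 4 microRNAs higher and 0 microRNAs lower under overload, 0 members higher and 26 microRNAs higher for the drug difference. With the replicate block, the sign turned to -0.25 for miR-20a-5p under PF-04449613. Calls were 2 microRNAs lower under overload, 5 members lower under sildenafil.

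Leaving out each library in turn, the log2 fold changes that changed sign under overload were miR-106b-5p from -0.31 to 0.034, miR-17-5p from -0.22 to 0.078, miR-19a-3p from -0.44 to 0.015, miR-19b-3p from -0.16 to 0.22, miR-25-3p from -0.13 to 0.19 and miR-92a-3p from -0.31 to 0.0075. Under sildenafil miR-93-5p ran from -0.17 to 0.18. Under PF-04449613 the ranges were miR-106b-5p from -0.30 to 0.19, miR-17-5p from -0.11 to 0.15, miR-19a-3p from -0.52 to 0.0023, miR-19b-3p from -0.31 to 0.14, miR-20a-5p from -0.17 to 0.23, miR-25-3p from -0.15 to 0.052 and miR-93-5p from -0.10 to 0.055, and for the drug difference miR-93-5p from -0.13 to 0.088. The log2 ratios that changed sign under overload were miR-106b-5p/miR-106b-3p from -0.14 to 0.15, miR-17-5p/miR-92a-3p from -0.060 to 0.24 and miR-19b-3p/miR-92a-3p from -0.0063 to 0.32. Under PF-04449613 they were miR-106b-5p/miR-106b-3p from -0.90 to 0.050, miR-106b-5p/miR-93-5p from -0.57 to 0.16, miR-17-5p/miR-106b-5p from -0.013 to 0.49, miR-17-5p/miR-92a-3p from -0.48 to 0.11, miR-19b-3p/miR-92a-3p from -1.19 to 0.081, miR-20a-5p/miR-17-5p from -0.22 to 0.070 and miR-93-5p/miR-25-3p from -0.0039 to 0.093. Counts of calls under overload ranged over 3 to 14 microRNAs higher and 0 to 1 microRNAs lower, and under sildenafil over 3 to 7 members lower and 56 to 108 microRNAs higher. Under PF-04449613 they ranged over 0 to 1 microRNAs lower, and for the drug difference over 0 to 2 members higher, 2 to 6 members lower, 13 to 95 microRNAs higher and 59 to 167 microRNAs lower. Ratios past the adjusted threshold ranged from 0 to 11.

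Replicate numbers are shared between groups, but the labels do not say that they pair mice. Over 30 same-numbered pairs of libraries the deviations from the group means correlated at a median of 0.0017 (-0.21 to 0.35), 7 pairs were over 0.1, and 4 of 21 libraries correlated best with their own number. With the replicate block, miR-18a-5p (-2.47, edgeR adjusted p = 0.0428) and miR-20a-5p (-1.38, 0.0464) were also called lower under sildenafil. Depth limits the scarce members with sildenafil, where miR-18a-5p held 0 to 28 and miR-19a-3p 0 to 11 counts. Under overload miR-19a-3p held 48 to 143 counts, and its 95% interval ran from -1.77 to 1.31. That of miR-19b-3p, at 376 to 1141 counts, ran from -1.64 to 1.58. The fit behind these intervals took in all 21 libraries, and changes within them are not excluded.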
